A study of Mus musculus with 1111 samples.

Results

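The cell cycle genes examined here are 34 named protein-coding genes of DNA replication, nucleotide supply and mitosis, chosen by symbol from the 35583 genes of the count tables. They were read in single microglia, the resident macrophages of the brain, taken from 3-month-old mice 20 hours after injection of plasma proteins carrying the fluorescent dye NHS-Atto647N. The cells were sorted by the plasma signal inside each cell as plasma none, plasma low or plasma high, and each was made into its own library with Smart-seq2, a full-length plate method. All 3 groups came from injected young mice. The labels used here name no genotype, strain, sex or animal. Each group was therefore taken as 1 sample, and no test between groups could be made. The label of each cell also carries a TH number from 1 to 3, whose meaning is not stated. The SDs below are over these 3 sets of wells, which are not shown to be separate animals. Each group filled its own plate columns, 1 to 8 for plasma none, 9 to 16 for plasma low and 17 to 23 for plasma high, so a difference between groups and a difference between plate columns cannot be told apart.

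A dividing cell first loads the MCM2-7 helicase onto origins, then copies its DNA with the sliding clamp PCNA and a supply of deoxynucleotides, and later switches on a second wave of genes for spindle assembly and chromosome separation. The mitotic wave is under the B-MYB, FOXM1 and DREAM complexes, which act at short promoter elements named CHR. CCAAT boxes are other short elements often found in the same promoters. The replication wave is under E2F factors. Adult microglia renew themselves slowly by division, so few are in cycle at any time.

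After a filter of at least 50000 reads and 500 genes, 987 cells remained, of which plasma high made up 29.4%, plasma low 35.6% and plasma none 35.1%. The median reads per cell were 267143, 229931 and 207429 in that order, and the median genes per cell 1943, 1994 and 1708. The 7 microglia markers used, among them Tmem119, P2ry12 and Cx3cr1, summed to 31160 ± 2144 CPM (reads of a gene scaled to the reads of its library) in plasma high, 32132 ± 2854 in plasma low and 32709 ± 1345 in plasma none (SD over TH numbers, n = 3). Of 44 markers of other cell types, the neutrophil and lymphocyte genes had 0 reads in every sum, and the median marker was seen in 0% of cells. The most widely seen was the endothelial and platelet adhesion gene Pecam1, with a read in 9.12% of cells.

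Most members were seen in very few cells. Cdc6, which loads the helicase, had 0 reads in all 987 cells, which allows a share of up to 0.304%. A further 18 members were seen in under 1% of cells, making 19 of 34, while 8 members were seen in more than 5%. The most widely detected was Pcna, in 12.7% of cells. It was followed by the helicase subunit Mcm3 in 9.32%, the chromatin protein Hmgb2 in 8.31%, the helicase partner Gins2 in 7.40%, the helicase subunit Mcm7 in 7.19% and cyclin A2, Ccna2, in 6.89%. Apart from Ccna2, each of the 18 mitotic members was seen in under 1% of cells. Averaged over the 9 sums and divided by exon length, the levels were 15.7 CPM per kb for Pcna, 13.9 for Mcm3, 5.90 for the microtubule regulator Stmn1, 5.88 for thymidylate synthase, Tyms, and 5.21 for Gins2. For the mitotic kinase Aurkb, the level was 1.85 CPM per kb, and for the proliferation antigen Mki67 0.620.

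**Figure D1:**
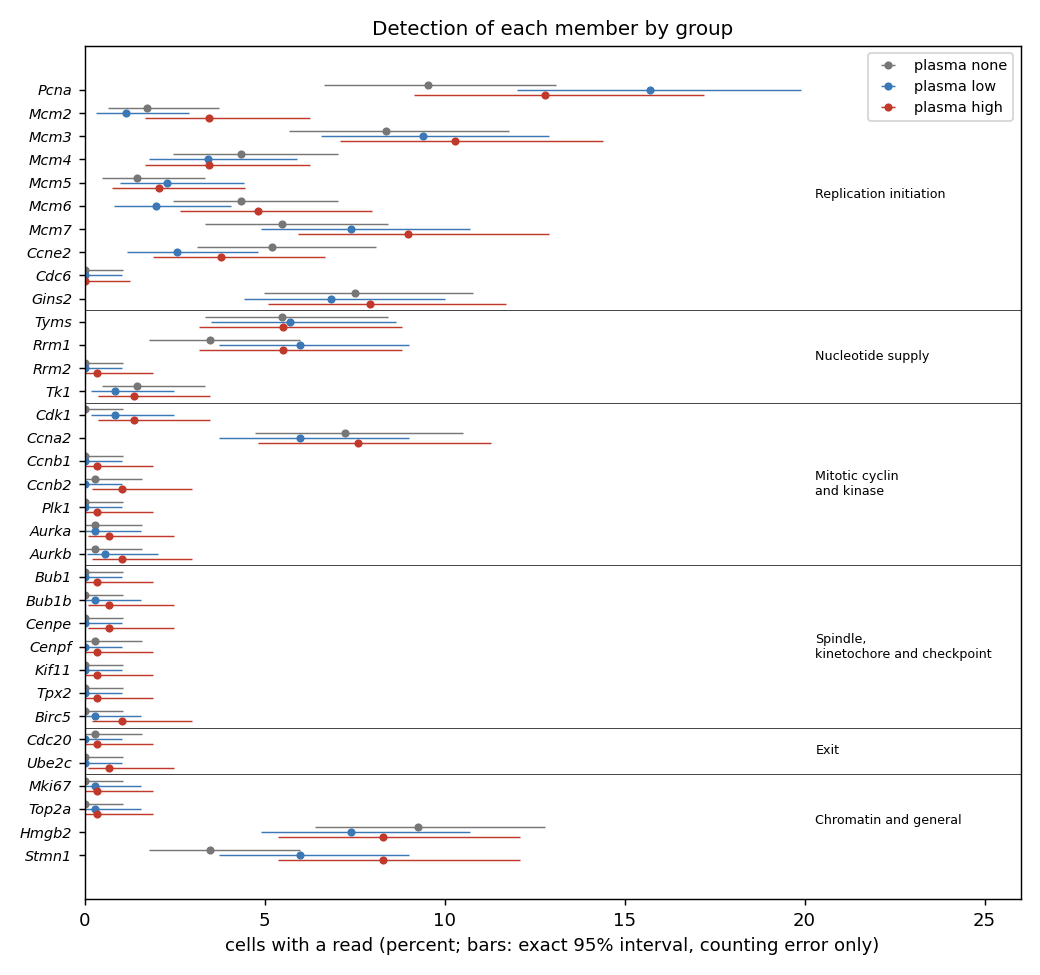
Share of cells with at least 1 read of each member (percent, x axis) in plasma none, low and high, with the members ordered by role. Bars are exact 95% Clopper-Pearson intervals for counting error only; Pcna reached 15.7% in plasma low, while the spindle genes stayed near 0 in each group.

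Cells that carry several members together were counted next. A member was counted as carried at 10 CPM or more in a cell. By this measure 499 of 987 cells (50.6%, exact 95% interval 47.4 to 53.7) carried at least 1 member, 190 carried at least 2, 62 at least 3 and 9 at least 5. The 9 cells made up 0.912% of all cells (0.418 to 1.72, counting error only). Plasma none held 3 of them, with 1 in each TH number. Plasma low held 2, both in TH 3, and 0 in TH 1 and TH 2, where a count of 0 allows shares of up to 2.54% and 2.56%. Plasma high held 4, with 2 in TH 1, 1 in TH 2 and 1 in TH 3. By TH number, TH 1 held 3 such cells (0.896% of its cells), TH 2 held 2 (0.613%) and TH 3 held 4 (1.23%). The shares by group were 1.37% ± 0.532 in plasma high, 0.575% ± 0.995 in plasma low and 0.867% ± 0.0158 in plasma none (SD over TH numbers, n = 3), and the exact intervals of the pooled shares (0.377 to 3.49, 0.0691 to 2.04 and 0.179 to 2.51) overlapped. With each cell thinned to 50000 reads and a member carried at 1 read, the shares in that order were 1.04% ± 0.0429, 0.287% ± 0.498 and 1.15% ± 0.483. The mean number of members carried per cell was 0.962 ± 0.172 in plasma high, 0.780 ± 0.155 in plasma low and 0.748 ± 0.0703 in plasma none. By TH number the means were 0.861, 0.865 and 1.16 in plasma high, 0.907, 0.607 and 0.828 in plasma low, and 0.759, 0.673 and 0.812 in plasma none. Plasma high lay above plasma none in 3 of 3 TH numbers with no overlap, while plasma low overlapped both. The median genes per cell were apart in the same way. They were 2045, 1882.5 and 1889 in plasma high and 1729.5, 1631 and 1728 in plasma none. Whether the members differ beyond genes in general was not tested. Plasma high cells were also deeper. After thinning the means were 0.812, 0.833 and 1.16 in plasma high and 0.750, 0.655 and 0.786 in plasma none. What part depth plays in the difference was not tested. Without the 1 cell of plasma high in TH 3 that carried most members, described next, the mean of 1.16 was 0.924, both before and after thinning.

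**Figure D2:**
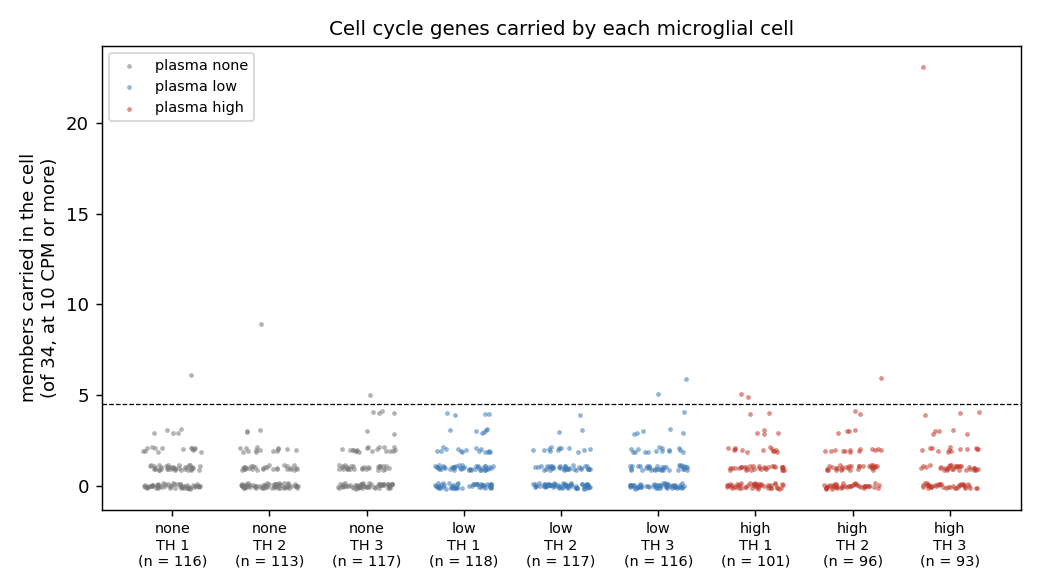
Number of members carried at 10 CPM or more (y axis, of 34) in each of 987 cells, by group and TH number (x axis), with points spread sideways and slightly upwards for visibility. The dashed line separates the 9 cells carrying 5 or more, of which 1 in plasma high of TH 3 stands at 23 and the next, in plasma none of TH 2, at 9.

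One cell stood apart from all others. It was a plasma high cell of TH 3, in well M21, and it carried 23 of the 34 members. It carried 17 of the 18 members that act in mitosis, all but the checkpoint kinase Bub1b, while no other cell carried more than 2. Among the mitotic members in this cell, the S and G2 phase cyclin Ccna2 stood at 2986 CPM, the chromosome surface protein Mki67 at 2272 CPM, the inhibitor of apoptosis and chromosomal passenger Birc5 (survivin) at 2269 CPM, and the kinetochore motor Cenpe at 1876 CPM. DNA topoisomerase Top2a stood at 1727 CPM, the kinase Aurkb at 1425 CPM and the central mitotic kinase Cdk1 at 1196 CPM. The anaphase activator Cdc20 was at 1009 CPM, the ubiquitin-conjugating enzyme of mitotic exit Ube2c at 1188 CPM, and the B-type cyclin Ccnb2 at 979.7 CPM, with its relative Ccnb1 lower still. The ribonucleotide reductase subunits were also present, with Rrm2 at 3549 CPM and Rrm1 at 815.6 CPM. None of the helicase subunits Mcm2 to Mcm7 had a read in it, and Pcna stood at 15.72 CPM. In total 15332 of its 572597 reads fell in members.

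Most reads of mitotic members in the tables came from this cell. All reads of Rrm2, Ccnb1, the kinases Plk1 and Bub1, the spindle motor Kif11 and the spindle factor Tpx2 came from it. It held 1301 of 1304 reads of Mki67, and 99.9% of the reads of Top2a, 99.7% of Cdc20 and 99.7% of the kinetochore gene Cenpf. For 10 members it held over 90% of reads, and for 16 members over 50%. Outside it, 92 of 986 cells had a read of any of the 18 mitotic members, 88 of them of 1 such gene and 4 of 2. Ccna2 alone was read in 67 other cells, and the next were Cdk1 in 6 cells, Aurkb in 5, and Birc5, Ccnb2, Bub1b and the kinase Aurka in 3 each.

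The same cell had a microglial profile. It carried 6 of the 7 microglia markers, with Cx3cr1 at 5915 CPM, Csf1r at 4852, Tmem119 at 4801, Fcrls at 3821, P2ry12 at 993.7 and Siglech at 971.0 CPM, while the transcription factor Sall1 had 0 reads. The markers summed to 21354 CPM. None of the 44 markers of other cell types had a read in it. It was deep, with more reads than 97.8% and more genes (3311) than 98.9% of the cells of its group and TH number, and after thinning to 50000 reads it still had a read of 23 members. Leaving Ccna2 aside, its other 16 mitotic members held 10141 reads in it and 0 in the 7 passing cells of touching wells. Those 16 genes had a read in 2 of the 35 cells that shared its row or column, in 10 of 290 other cells of TH 3 and in 13 of 661 cells of the other TH numbers.

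**Figure D3:**
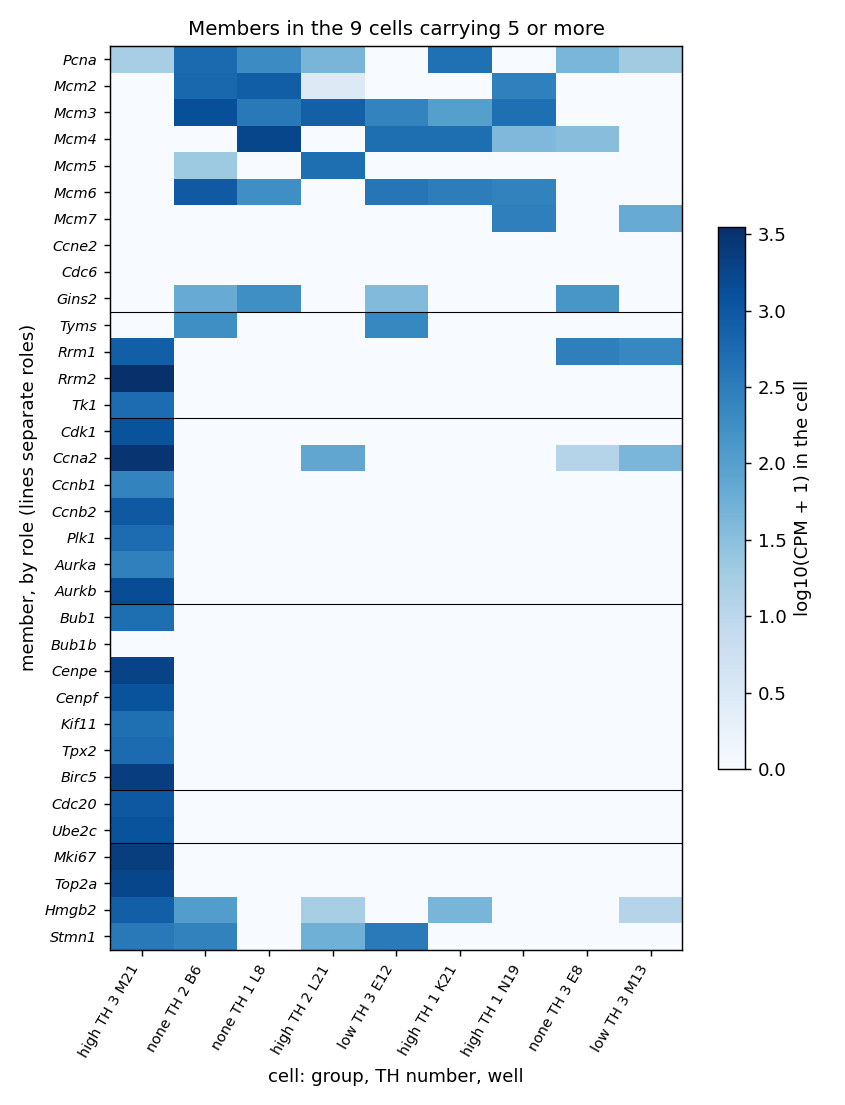
Level of each of the 34 members (rows, ordered and divided by role) in the 9 cells carrying 5 or more (columns, labelled by group, TH number and well), as log10(CPM + 1). The first column, well M21, is filled from Rrm1 to Stmn1 except for Bub1b and is empty for Mcm2 to Mcm7, whereas the other columns are filled mainly in the upper, replication rows.

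The other 8 cells carried replication members with at most 1 mitotic member each, which was Ccna2. The cell with the second largest number was a plasma none cell of TH 2 in well B6, with 9 members and 0 mitotic ones. In it Mcm3 stood at 1351 CPM, Mcm6 at 954.9, Mcm2 at 617.2, Pcna at 564.8, Stmn1 at 264.9, Tyms at 180.5, Hmgb2 at 107.7, Gins2 at 64.05 and Mcm5 at 20.38 CPM. It also carried 10 of 28 further replication genes, the largest number of any cell, and 0 of 32 further mitosis genes. A plasma none cell of TH 1 in well L8, close to the depth minimum with 51251 reads, carried 6 members, among them Mcm4 at 1756 CPM and Mcm2 at 819.5 CPM. In plasma high, a TH 1 cell in well N19 carried 5 of the 6 helicase subunits, with Mcm3 at 486.3, Mcm7 at 285.4, Mcm2 at 278.4, Mcm6 at 264.3 and Mcm4 at 38.76 CPM. The remaining carriers were plasma high wells K21 of TH 1 (5 members) and L21 of TH 2 (6), plasma low wells E12 (6) and M13 (5) of TH 3, and plasma none well E8 of TH 3 (5). No cell carried all 6 helicase subunits. At least 1 was carried by 62 cells of plasma high, 66 of plasma low and 68 of plasma none. At least 2 were carried by 39 cells, at least 3 by 15 and at least 4 by 4 cells, 2 in plasma none and 2 in plasma high.

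Other genes of the cycle, from lists chosen by function, were read in the M21 cell against the other 986 cells. Of 32 further mitosis genes it carried 28, where no other cell carried more than 4. Among these were the mitotic entry trigger Cdca3 at 2676 CPM, the kinesin Kif20a at 1593 CPM, the cytokinesis factor Ect2 at 1289 CPM, the spindle protein Nusap1 at 1207 CPM and the centromeric histone Cenpa at 1109 CPM. It carried 5 of 11 checkpoint and entry genes, with the phosphatase Cdc25b at 1135 CPM, and 6 of 17 E2F, DREAM and B-MYB genes, where the highest of the others were 4 and 5. The 6 were E2f5, E2f6, E2f7, Tfdp1, Lin37 and Rbbp4. In the same list Foxm1, Lin9, Lin52 and Lin54 had 0 reads in M21, and the B-MYB gene Mybl2 had 4 reads (6.986 CPM). M21 also carried 8 of 28 further replication genes, with Mcm10 at 1844 CPM and read in no other cell, and the flap nuclease Fen1 at 1200 CPM. Of 16 brakes on the cycle it carried 7, including the inhibitors Cdkn1a at 730.0 and Cdkn2c at 614.7 CPM, and 5 other cells carried as many or more. Of 11 G1 cyclins and kinases it carried Cdk4 alone, at 422.6 CPM, and had 0 reads of the D-type cyclins Ccnd1, Ccnd2 and Ccnd3.

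**Figure D4:**
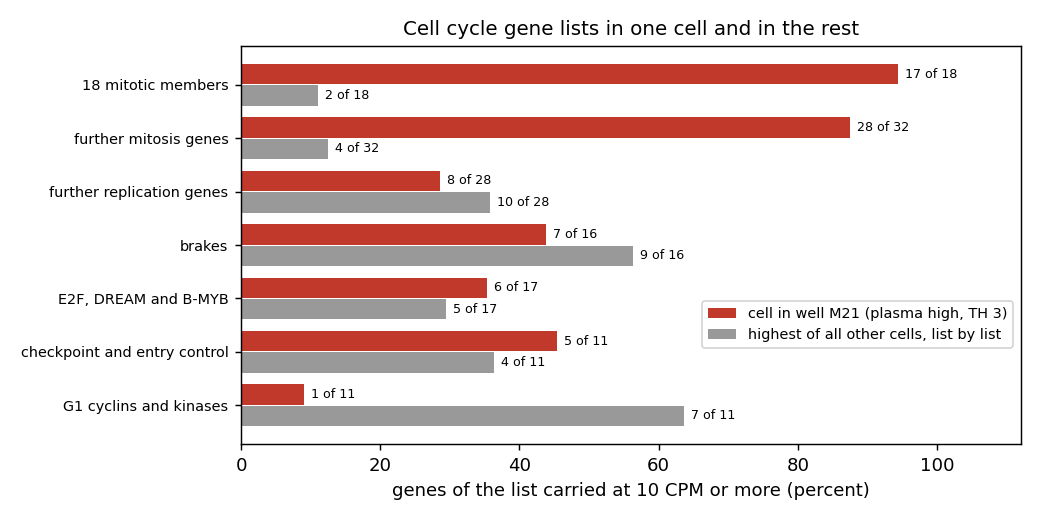
Share of each cell cycle list carried at 10 CPM or more (percent, x axis) in the plasma high cell of well M21 (red) and in whichever of the other 986 cells carried most of that list (grey), with counts beside the bars. Mitotic members (17 of 18 against 2) and further mitosis genes (28 of 32 against 4) differ most. M21 lies below the highest other cell for G1 cyclins and kinases (1 of 11 against 7), brakes (7 against 9) and further replication genes (8 against 10). The median of the other cells for G1 cyclins and kinases was 2.

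Because the mitotic members were found together in 1 cell, their promoters are shown. RefSeq windows (GRCm38.p6) from 250 bases before to 50 after the start were matched for 27 members, 15 of the mitotic ones and 12 of the others, the latter with 13 windows as Mcm7 has 2. The CHR element, TTTGAA, was searched on both strands and occurred in 11 of 15 mitotic windows, in 2 of 13 other windows and in 17.9% of all 32851 windows. The CCAAT box, CCAAT, was found in 14, 10 and 37.4%. Both together were found in 11, 2 and 6.95%. Of 4 E2F words, TTTCCCGC, TTTCGCGC, TTTGCCGC and TTTGGCGC, at least 1 occurred in 1 mitotic window, 5 other windows and 2.26% of all windows. A match is a run of letters and not a measured site. Below are the 150 bases before the start, 5′ to 3′ in the direction of the gene, with these matches in capitals, for Cdk1 at chr10:69352913-69353062 (minus strand), Cdc20 at chr4:118437344-118437493 (minus strand), Mki67 at chr7:135716380-135716529 (minus strand) and Top2a at chr11:99024190-99024339 (minus strand), all present in M21. Mcm6 at chr1:128359706-128359855 (minus strand), absent from M21 and present in B6, is given for contrast, and 2 of its E2F matches, on opposite strands, overlap.
Cdk1: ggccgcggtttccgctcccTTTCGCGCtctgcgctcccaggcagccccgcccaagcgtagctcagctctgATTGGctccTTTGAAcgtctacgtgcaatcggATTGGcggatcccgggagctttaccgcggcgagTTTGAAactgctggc
Cdc20: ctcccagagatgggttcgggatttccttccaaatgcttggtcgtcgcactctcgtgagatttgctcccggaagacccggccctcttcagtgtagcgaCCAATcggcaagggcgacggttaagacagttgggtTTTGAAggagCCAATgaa
Mki67: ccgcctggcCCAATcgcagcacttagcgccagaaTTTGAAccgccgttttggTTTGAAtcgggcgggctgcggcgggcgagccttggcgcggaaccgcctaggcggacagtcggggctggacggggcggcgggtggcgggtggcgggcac
Top2a: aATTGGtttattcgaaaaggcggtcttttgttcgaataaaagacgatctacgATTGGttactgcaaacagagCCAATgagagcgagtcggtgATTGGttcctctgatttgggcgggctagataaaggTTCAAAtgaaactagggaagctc
Mcm6: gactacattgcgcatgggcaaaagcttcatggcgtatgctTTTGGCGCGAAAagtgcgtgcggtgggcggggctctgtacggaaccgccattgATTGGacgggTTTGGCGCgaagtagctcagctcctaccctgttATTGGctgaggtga
In these stretches both CHR and CCAAT letters stand in the 4 mitotic genes, with E2F letters also in Cdk1, and CCAAT and E2F letters in Mcm6. The genes printed do not stand for all members with a window. Of the other mitotic members, Kif11 and Ube2c have CHR letters in the same 150 bases. Aurka, Birc5, Bub1, Bub1b, Ccnb1, Ccnb2, Cenpe, Cenpf and Plk1 have none there. Of the members that are not mitotic, Mcm2 and Hmgb2 have CHR letters there, and only Cdc6, Mcm5 and Mcm6 have E2F letters there.

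Among members seen outside M21, several share bases with a neighbour on the opposite strand, and the use of strand in counting is not stated. Ccna2, which lies at chr3:36564865-36572150 in the coordinates of the tables, overlaps 863 bases of the RNA exosome gene Exosc9. Of the 67 other cells with a read of Ccna2, 67 (100%) also had a read of Exosc9, against 13 of 919 cells (1.41%) without one. In these 67 cells the median was 17 reads of Ccna2, with a median of 5.80 reads of Exosc9 for each of them, whereas M21 held 1710 reads of Ccna2 and 386 of Exosc9. Gins2 overlaps Gse1, which was read in 69 of 73 cells with Gins2 (94.5%) and 4.16% of the rest. The G1/S cyclin Ccne2 overlaps the integrator subunit Ints8, read in 32 of 38 cells with Ccne2 (84.2%) and 4.64% of the rest. In cells other than M21 with reads of both genes, those of these 3 members cannot be told apart from those of their neighbours. Without the 10 members that overlap any gene, 6 cells carried at least 5 members, and M21 carried 16 and B6 carried 8 of the remaining 24.

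For the groups as wholes, reads were summed by group and TH number and scaled to CPM. In such sums, fewer cells with a gene's RNA and less of it per cell cannot be told apart. The size rule asked of a member a mean log2 ratio (pseudocount 1 CPM) of 1 or more in either direction with 1 sign in 3 of 3 TH numbers, and also 20 CPM on average and a read in 10% of the cells of 1 group. In plasma high over plasma none 0 members met it, of 2 common enough to be asked, beside 5.15% of 5534 genes. In plasma low over plasma none it was 0 of 1 beside 2.64%, and in plasma high over plasma low 0 of 2 beside 3.28%. With a wide rule of a mean of 5 CPM and no minimum share of cells, 2 of 22 members passed in plasma high over plasma none (10.3% of all genes passed), 2 of 14 in plasma low over plasma none (7.63%) and 2 of 22 in plasma high over plasma low (7.85%). Those in plasma high over plasma none were Rrm1 and Tk1, and neither kept 1 sign in 3 of 3 TH numbers without the M21 cell. In plasma high over plasma low they were Tk1 and Mcm5, of which Tk1 did not keep 1 sign without M21. The share of members was near that of all genes in both comparisons of plasma high. Without the M21 cell, however, 13 of those 22 members remained at a mean of 5 CPM. Some of the rest, such as Mki67 and Rrm2, were at 0 in TH 1 and TH 2 of both plasma high and plasma none. They could not pass in that comparison, so no conclusion about the members is drawn from the likeness. In plasma low over plasma none the share of members was higher, but from 2 genes. The comparisons share groups, so they are not independent of each other.

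The replication clamp Pcna stood at 38.09, 37.69 and 43.67 CPM in TH 1, 2 and 3 of plasma none, 44.76, 40.81 and 36.73 in plasma low, and 40.06, 29.30 and 28.01 in plasma high. The groups overlapped, with a log2 ratio of -0.30 ± 0.35 in plasma high over plasma none. Its share of cells with a read was 12.8% (exact 95% interval 9.14 to 17.2) in plasma high, 15.7% (12 to 19.9) in plasma low and 9.54% (6.66 to 13.1) in plasma none, and 10.7%, 14% and 8.67% after thinning. Mcm3 stood at 51.80, 52.03 and 31.12 CPM in the plasma none sums, 44.04, 107.9 and 43.04 in plasma low, and 28.43, 47.99 and 64.03 in plasma high, a log2 ratio of 0.02 ± 0.94 in plasma high over plasma none. Gins2 stood at 28.67, 21.96 and 13.64 CPM in the plasma none sums, 22.22, 17.19 and 3.902 in plasma low, and 21.13, 50.46 and 12.80 in plasma high, again with overlap.

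Mcm6 stood at 5.909, 65.25 and 22.74 CPM in the plasma none sums, 0.9192, 31.84 and 6.198 in plasma low, and 10.49, 30.71 and 8.574 in plasma high. It passed the wide rule as lower in plasma low than in plasma none, by a log2 ratio of -1.53 ± 0.45, though the values of the groups overlapped across TH numbers. A single cell held 52.6% of its plasma none reads, and another 69.9% of its plasma low reads. Mcm5 stood at 24.50, 12.07 and 9.259 CPM in plasma low and 5.722, 6.022 and 7.540 in plasma high, which did not overlap, a log2 ratio of -1.03 ± 0.84 that passed the wide rule. In plasma none it stood at 0.7848, 0.2168 and 15.23 CPM, both below and above the plasma high values.

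Among the nucleotide enzymes, Tyms stood at 28.25, 53.36 and 3.011 CPM in the plasma none sums, 76.89, 44.74 and 35.43 in plasma low, and 6.378, 37.36 and 37.01 in plasma high, with overlap between the groups. Rrm1, the large subunit of ribonucleotide reductase, stood at 3.047, 4.522 and 23.80 CPM in the plasma none sums, 14.71, 24.36 and 31.83 in plasma low, and 18.21, 30.59 and 36.32 in plasma high. Within each TH number plasma none was the lowest, and Rrm1 passed the wide rule in plasma high over plasma none (log2 ratio 1.78 ± 1.04) and in plasma low over plasma none (1.52 ± 0.97). In TH 3 the log2 ratio of plasma high over plasma none was 0.59, and it was -0.48 without the M21 cell, so the wide rule was then not met. Tk1, the thymidine salvage kinase, was at 0.09233, 0.1239 and 10.52 CPM in the plasma none sums, 0.6794, 0 and 8.761 in plasma low, and 11.56, 2.884 and 13.23 in plasma high. It passed the wide rule as higher in plasma high, by log2 ratios of 1.87 ± 1.61 over plasma none and 1.80 ± 1.19 over plasma low, from 12 cells in all. Without M21 its TH 3 ratios were -3.52 and -3.29, so the wide rule was then met in neither comparison. The small subunit Rrm2 was at 0 in 8 of 9 sums and at 87.55 CPM in plasma high of TH 3.

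Among the chromatin and general members, Hmgb2 stood at 7.756, 14.71 and 15.82 CPM in the plasma none sums, 16.43, 1.966 and 7.614 in plasma low, and 6.855, 5.191 and 32.92 in plasma high, with 38% of its plasma high reads in 1 cell. Its TH 3 log2 ratio of plasma high over plasma none was 1.01, and -0.22 without M21. Stmn1 stood at 7.294, 9.972 and 3.809 CPM in the plasma none sums, 12.27, 11.88 and 9.986 in plasma low, and 2.831, 13.84 and 30.25 in plasma high. For Stmn1 the same TH 3 ratio was 2.70, and 2.27 without M21, while in TH 1 it was -1.11. The share of cells with a read of Stmn1 was 8.28% (5.37 to 12.1) in plasma high, 5.98% (3.74 to 9.0) in plasma low and 3.47% (1.80 to 5.98) in plasma none, and 7.93%, 5.70% and 2.89% after thinning. Ccna2 stood at 9.464, 16.69 and 5.405 CPM in the plasma none sums, 4.596, 5.942 and 3.902 in plasma low, and 3.070, 9.668 and 80.74 in plasma high. Its highest sum was that with M21, and the share of cells with a read was 7.59% in plasma high, 5.98% in plasma low and 7.23% in plasma none.

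Over the 22 members at a mean of 5 CPM or more, the median log2 ratio of plasma high over plasma none was 1.03, beside 0.03 over all genes at that level. By TH number the medians were 0, 0 and 2.38, since many mitotic members were at 0 in both groups of TH 1 and TH 2. Without M21 13 members remained at that level, with a median of 0.23 and a TH 3 median of -0.22. With reads pooled over TH numbers and any group under 3 reads set at 3 reads, the median over the 22 was 1.08. For plasma high over plasma low the median was 0.98 over 22 members, and -0.09 over 13 without M21. For plasma low over plasma none it was -0.01 over 14 members.

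**Figure D5:**
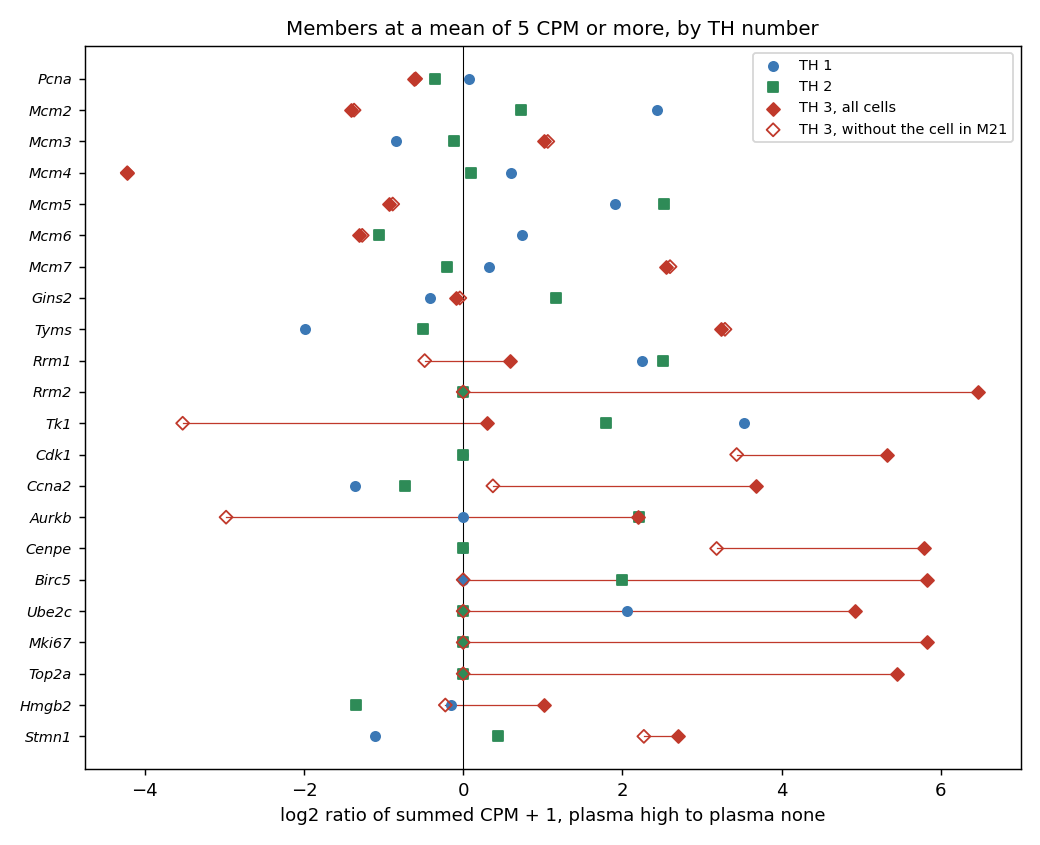
Log2 ratio of summed CPM + 1 in plasma high over plasma none (x axis) for the 22 members at a mean of 5 CPM or more, in each TH number, with open diamonds for TH 3 without the cell in well M21. The mitotic members and Rrm2 lie to the right in TH 3 and move left when that 1 cell is left out, Mki67 and Top2a to 0, while the helicase genes barely move. Aurkb (2.21) and Birc5 (2.00) in TH 2 and Ube2c (2.06) in TH 1 also lie to the right.

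Genes that control entry into the cycle ranged from unread to widely read. The G1/S cyclin Ccne1 and the repressor E2f8 had 0 reads in all cells, and the mitotic gene activator Foxm1 was read in 4 cells. Btg1, an antiproliferative gene, stood at 610.7, 546.5 and 479.4 CPM in TH 1, 2 and 3 of plasma high, 639.7, 302.4 and 401.2 in plasma low, and 529.7, 461.6 and 555.9 in plasma none, with a read in 72.1%, 67% and 62.7% of cells. The retinoblastoma gene Rb1 stood at 132.7, 162.7 and 152.2 CPM in plasma high, 155.6, 142.1 and 158.4 in plasma low, and 163.4, 160.1 and 121.7 in plasma none. Cdk4, the D-cyclin kinase, stood at 208.8, 219.4 and 136.5 CPM in plasma high, 178.2, 190.3 and 197.8 in plasma low, and 176.3, 171.7 and 137.9 in plasma none. Of these values, only those of Cdk4 in plasma low and plasma none did not overlap, by a narrow gap from 176.3 to 178.2 CPM. The share of all genes without such overlap was not counted. Rb1, Cdk4 and Btg1 are given here because of how widely they were read, a choice made after their values were seen. None of the genes of the 6 further lists met the size rule in any of the 3 comparisons. In plasma high over plasma none, the highest and lowest mean ratios of each list among genes at 20 CPM or more were these. Among G1 genes Ccnd1 had 0.20 ± 0.26 and Cdk2 -1.06 ± 1.71, and among brakes Rbl1 had 0.28 ± 1.93 (-0.26 without M21) and Rbl2 -0.64 ± 0.56. Among E2F and DREAM genes E2f3 had 0.55 ± 0.24 and Lin37 -0.70 ± 0.41, and among replication genes Orc2 had 0.23 ± 1.03 (-0.13 without M21) and Rpa1 -0.33 ± 1.85. None of the 3 checkpoint genes at that level rose, with Atr highest at -0.29 ± 1.79 and Fzr1 lowest at -0.35 ± 0.58. Pttg1, the 1 mitosis gene at 20 CPM or more, had -0.53 ± 0.98 (log2 ratio, SD, n = 3 TH numbers). In these, the SD was larger than the mean ratio except for Rbl2, E2f3 and Lin37. The median over the list was -0.56 for 9 G1 genes, -0.29 for 12 brakes, -0.15 for 12 E2F and DREAM genes, -0.015 for 14 replication genes, 0.51 for 7 checkpoint genes and 0.92 for 14 further mitosis genes. Without M21 these were, in the same order, -0.55 over 9, -0.40 over 11, -0.34 over 12, -0.19 over 13, 0.12 over 6 and 0.27 over 7 genes.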

How the data were processed

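Per the labels, single microglia sorted by plasma signal were made into Smart-seq2 libraries. Per the submitters' processing notes, bcl2fastq, Trim Galore, STAR 2.5.3a and Seurat were used, with mm10; how reads were assigned to genes and strands is not given in the sources used here. The authors deposited 1 table per TH number with a raw read count per gene and cell. Per the file headers, columns of TH 2 and TH 3 came from alignments kept to top hits, with no such note for TH 1. In 1 deposited column 2 values were not whole, so it was read as an expected count and rounded. There were 0 value columns without a matched cell. Of 1111 labelled cells 1045 were matched to a column by well and TH number, and the other 66 were not analysed here.

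Cells with at least 50000 reads and 500 genes passed, with 282054715 reads in all, between 21309816 and 49323522 in each sum of a group and TH number. No 2 passing cells had the same values. The cells were sorted singly into wells, and no doublet caller was run. Sums were scaled to CPM with TMM factors (edgeR 4.0.16, R 4.3.3; Python 3.11.15). No count test was run, because no label names an animal. Log2 ratios were taken within each TH number with a pseudocount of 1 CPM, tested on simulated data. Intervals are exact Clopper-Pearson at 95%, and a count of 0 allows 3 counts of the total; both cover counting error only, and reads carry no molecular identifiers. Coordinates are those of the tables, and the 34 members have the same coordinates in GENCODE M21 (GRCm38), which gave exon lengths.

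The members, gene lists and rules were chosen with earlier results of these data known. All members could be named, with values in each sum for those at a mean of 20 CPM or meeting the size or wide rule. Of each other list, the genes with the highest and the lowest mean ratio in plasma high over plasma none among those at 20 CPM or more were named. Alternatives were other scalings (DESeq2 1.42.0 size factors among them), pseudocounts, filters, cell sets and levels at which a member counts as carried. One gene of the microglia marker list is not reported here and was left out of its sums.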

Additional observations from a re-analysis of the deposited data

How the results depend on the processing

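With a member carried at 1 read, 14 cells carried at least 5 members, and at 50 CPM or more 4 cells did, with a share of 0.345% in plasma high. Counting mitotic members only, 1 cell carried at least 5, a share of 0.345% in plasma high against 0% in plasma low and 0% in plasma none. Thinning gave 8 cells, the stricter cell filter 7, and all cells with a read 10. Leaving out each TH number in turn gave 5 to 7 cells, with shares of 1.06% to 1.55% in plasma high, 0% to 0.858% in plasma low and 0.858% to 0.873% in plasma none. The 0% arose without TH 3, which held both plasma low cells. The size rule was met by 0 members under the other alternatives run, and the wide rule by 2 in each comparison with all cells. Without the M21 cell, Rrm1 and Tk1 no longer met the wide rule in plasma high over plasma none, nor Tk1 in plasma high over plasma low.

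The median log2 ratio of members in plasma high over plasma low turned from 0.98 to -0.05 without the 9 cells carrying at least 5 members, and to -0.09 without the M21 cell, an alternative chosen after seeing the data. Leaving out each TH number gave -0.04 to 1.52, the lowest without TH 3. In plasma high over plasma none the range was -0.15 to 1.55, again lowest without TH 3, and -0.13 when each sum dropped the cell highest in the gene, 0.18 with each cell weighing the same and 0.63 with a pseudocount of 5 CPM. In plasma low over plasma none the range was -0.13 to 0.33. Scaling by library size or DESeq2 size factors moved these medians by less than the SD over TH numbers. No paired analysis was possible because no test was run into which a block could enter; the ratios themselves were taken within TH numbers, which are not stated to mark shared animals. Depth limits the sparse members: for a gene with 0 reads in a group, a share of 0.855% to 1.03% of cells with a read is still allowed.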
